A study of Homo sapiens with 6 samples.

Results

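The genes described here are MYC and 37 ribosome biogenesis factors, 38 of the 58243 genes listed in the files, taken by symbol from a list of named genes. All 38 were found, and all passed the filter on low values, which asked for 1 FPKM or more on average across the 6 libraries. FPKM counts fragments relative to transcript length and to the size of the library. The libraries are mRNA sequencing of CAL27, an established human line derived from a tongue squamous carcinoma, grown in DMEM with fetal bovine serum. The control group held 3 libraries of cells given the PBS vehicle for 48 h, and the treated group held 3 libraries of cells given 30 mM metformin, a biguanide drug, for 48 h. One cell line at 1 dose and 1 time was measured. Whether each library is a culture of its own is not said in the labels, so p-values reflect only how far these libraries scatter, and that scatter may be technical.

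Ribosomes are assembled in the nucleolus. RNA polymerase I transcribes ribosomal DNA into a long precursor, box C/D and box H/ACA small nucleolar ribonucleoproteins (snoRNPs) methylate and pseudouridylate it, and many processing factors cut and fold it into the small and the large subunit. MYC is a transcription factor that binds with its partner MAX to E-box sequences and is known for raising ribosome biogenesis genes in growing cells, and many tumours depend on that output.

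With metformin, all 3 box C/D snoRNP proteins and 2 of 4 box H/ACA proteins among the 38 genes fell. So did 4 of 7 nucleolar scaffold, chaperone and GTPase or helicase proteins, whereas UBTF rose. The DKC1 call, 1 of the 2 box H/ACA falls, was lost under 10 of 18 other settings of the fit. NOP56 and NCL had the largest fold falls of the 38 genes, both as ratios of mean FPKM and on the fitted log2 scale. MYC itself did not pass the test and was more variable between libraries than nearly every other gene. Of the 38 genes, 18 fell and 1 rose at an adjusted p below 0.05 (limma's moderated test on log2(FPKM + 1), two-sided, with Benjamini-Hochberg adjustment over 13437 tested genes), and 19 did not pass. Over all tested genes, 56.2% passed, 25.2% as lower and 31.0% as higher, against 47.4% and 2.63% of the 38. The median log2 change, metformin minus PBS, was -0.21 for the 38 genes and 0.06 for all tested genes. On this scale the added 1 shrinks the log2 change of weakly expressed genes. The metformin values lay below every PBS value in 20 of the 38 genes and above every PBS value in 2 (28.7% and 35.7% of all tested genes, 64.4% together). The FPKM values of the 38 genes together summed to 1430, 1485 and 1510 in the PBS libraries and to 1142, 1128 and 1135 in the metformin libraries. That sum was 0.702% to 0.736% of all FPKM in a PBS library and 0.556% to 0.565% in a metformin library.

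**Figure D1:**
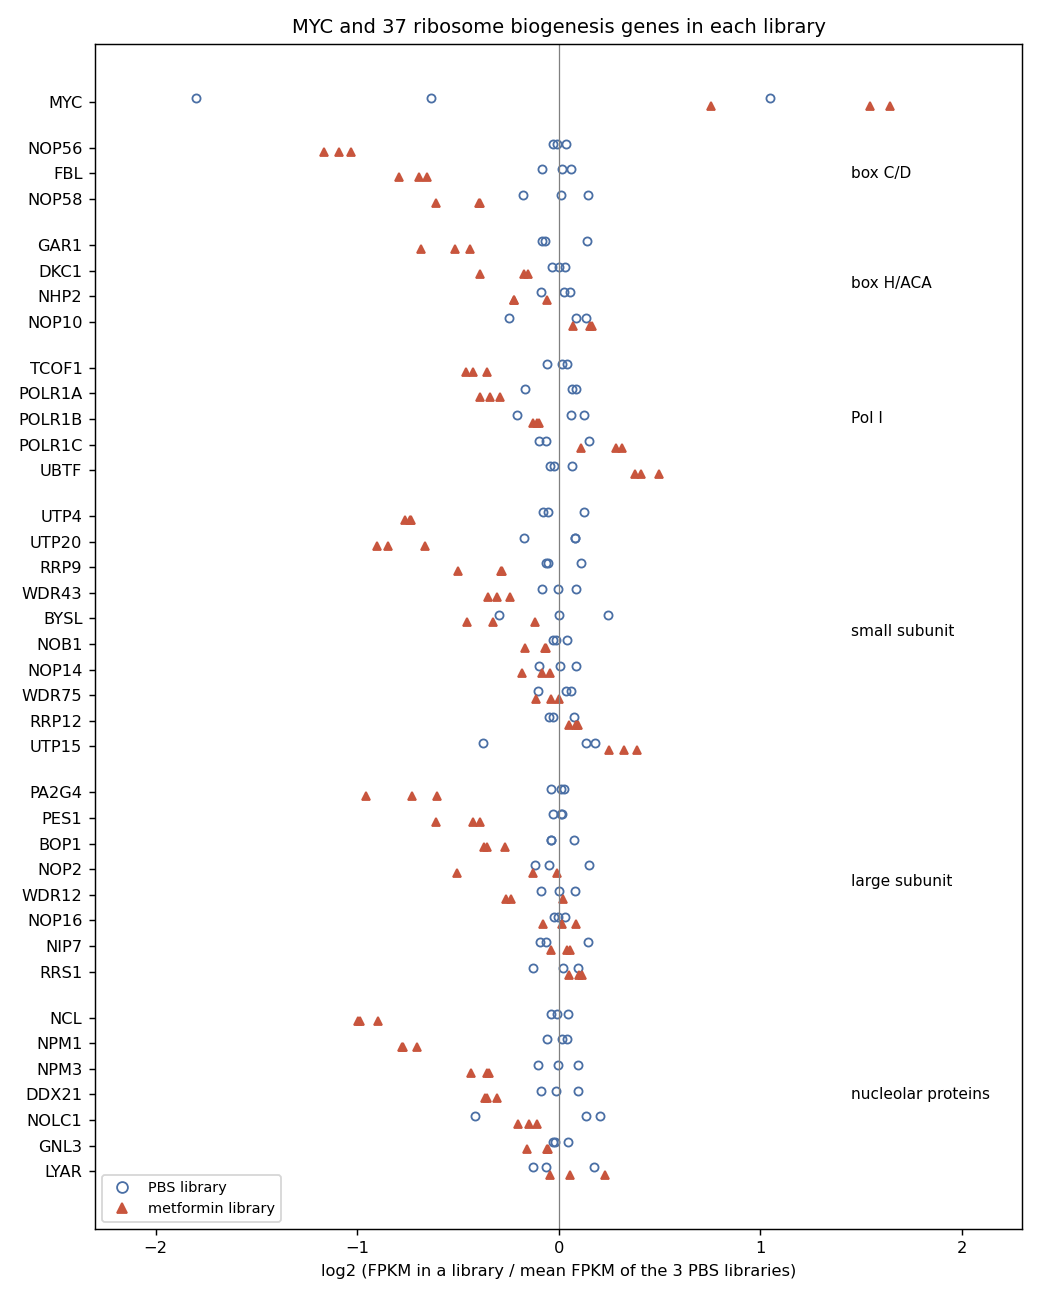
Each row is 1 gene, grouped by role, and each point is 1 library, as the log2 ratio of its FPKM to the mean of the 3 PBS libraries (open circles, PBS; triangles, metformin). The triangles of NOP56 and NCL lie near -1, 1 PBS library of MYC lies far above the other PBS libraries, and UBTF is shifted to the right.

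Depth overlapped between the groups. From the spacing of low FPKM values, the PBS libraries were estimated to hold 7770000 to 8810000 counted fragments and the metformin libraries 7990000 to 8560000. FPKM per library summed to 200842 to 208899. Of the 10 squamous keratinocyte markers checked, all 10 were above the filter in these cells, although 6 were lower with metformin and 3 higher, and their summed level was 1418 to 1496 FPKM with PBS and 840.3 to 863 with metformin. Of 21 markers of fibroblasts, endothelium, immune cells and melanocytes, 4 passed the filter (COL1A1, CDH5, CD68 and CD14). The fibroblast list summed to 1.54 to 2.34 FPKM with PBS and 2.49 to 2.74 with metformin, and the endothelial list to 6.01 to 7.06 and 2.11 to 2.32. The immune list summed to 5.69 to 6.74 FPKM with PBS and 4.28 to 6.19 with metformin, and the melanocyte list to 0.427 to 0.548 and 0.414 to 0.495. DCN, KDR and TYR, markers of fibroblasts, endothelium and melanocytes, were listed at 0 throughout. Whether these shifts have a part in the changes below was not tested. In bulk RNA, fewer cells expressing a gene and less RNA of it per cell cannot be told apart.

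The promoters of these genes were read for the canonical MYC E-box, CACGTG, because the group is commonly described as MYC-regulated. The windows are RefSeq's, build GRCh38.p14, 300 bases each (250 before and 50 after the start of the gene). They were in the table for 31 of the 38 genes, and not for BOP1, MYC, NOLC1, NOP58, RRP12, RRS1 and TCOF1. The motif reads the same on both strands. Of the 38 windows of these 31 genes (some have more than 1 window), 14 held CACGTG, 36.8%, against 7.26% of all 35116 windows. By gene, 14 of 31 held it, 45.2%, against 13.0% of the 8583 tested protein-coding genes with a window. These shares are descriptions of the sequences, and a match is not evidence of binding. The lines below show the match and its surroundings, read 5′ to 3′ on the strand of the gene with the motif in capitals, for 7 genes that fell and for NOP10, which has 2 matches and did not pass the test.
DDX21, chr10:68956604-68956633, plus strand: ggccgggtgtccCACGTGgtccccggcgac
FBL, chr19:39846356-39846385, minus strand: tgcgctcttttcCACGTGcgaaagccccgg
GAR1, chr4:109815781-109815810, plus strand: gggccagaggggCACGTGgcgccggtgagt
PES1, chr22:30591880-30591909, minus strand: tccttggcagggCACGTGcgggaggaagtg
RRP9, chr3:51941892-51941921, minus strand: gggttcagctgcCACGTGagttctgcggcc
UTP4, chr16:69132621-69132650, plus strand: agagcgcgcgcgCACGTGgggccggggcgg
WDR43, chr2:28894658-28894687, plus strand: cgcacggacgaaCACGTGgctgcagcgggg
NOP10 near match, chr15:34343130-34343159, minus strand: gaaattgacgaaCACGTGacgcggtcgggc
NOP10 far match, chr15:34343289-34343318, minus strand: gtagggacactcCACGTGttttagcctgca

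In DDX21 the first base of the motif lies 31 bases before the start site, in UTP4 16 and in RRP9 5. In WDR43, FBL, PES1 and GAR1 it lies after the start, at base 4, 7, 14 and 32 counted from the start site. The NOP10 matches begin 11 and 170 bases before the start. Of the 15 matches, 7 began before the start site and 8 after it. The bases before the start of UTP20 and NPM3 are shown whole, since both genes fell and only the UTP20 stretch holds the motif, 10 bases before the start.
UTP20, chr12:101279855-101280104, plus strand: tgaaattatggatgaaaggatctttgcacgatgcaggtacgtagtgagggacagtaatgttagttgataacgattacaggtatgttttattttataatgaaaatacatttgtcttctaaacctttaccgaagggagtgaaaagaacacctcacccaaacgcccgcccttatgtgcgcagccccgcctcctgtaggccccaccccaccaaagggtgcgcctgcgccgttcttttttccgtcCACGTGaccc
NPM3, chr10:101783447-101783696, minus strand: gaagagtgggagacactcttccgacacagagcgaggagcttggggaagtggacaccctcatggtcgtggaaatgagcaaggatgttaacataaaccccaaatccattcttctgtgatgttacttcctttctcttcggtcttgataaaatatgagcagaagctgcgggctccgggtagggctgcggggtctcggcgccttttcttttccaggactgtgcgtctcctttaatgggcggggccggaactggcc

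Genes fell whether or not their window held the motif. Of the 14 genes with CACGTG, 8 fell, 0 rose and 6 did not pass (BYSL, GNL3, LYAR, NOP10, NOP14 and NOP2), with a median log2 change of -0.31. Of the 17 genes with a window and no CACGTG, 7 fell, 1 rose and 9 did not pass, with a median of -0.14. NOP56 and NCL, which fell the most by fold, were among these 17. UTP20, with the next largest fold fall in mean FPKM, was among the 14. Over all tested genes 25.2% fell and 31.0% rose. The difference between the sets was not tested. No match says only that these letters are not in this window.

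MYC (ENSG00000136997.17, chromosome 8, 127735434 to 127741434 in GRCh38) had 8.26, 3.68 and 26.5 FPKM with PBS and 40.04, 37.4 and 21.6 with metformin. PBS replicate 3 lay above metformin replicate 3, so the groups overlapped. The mean was 12.8 ± 12.1 FPKM with PBS and 33.0 ± 9.96 with metformin (SD, n = 3 each), and the log2 change of 1.63 had an SE of 0.61 and a 95% confidence interval of 0.17 to 3.096 (limma adjusted p = 0.0580). The pooled SD of MYC between libraries of a group, 0.97 on the log2(FPKM + 1) scale, was larger than that of 99.4% of tested genes. The MYC value moved in both directions with the libraries used. Without PBS replicate 3 the log2 change was 2.32 and passed (limma adjusted p = 0.00396), and without PBS replicate 2 it was 1.04 and did not (0.135). With both libraries numbered 3 left out MYC passed at 2.59 (0.00429), and without any 1 of the other 4 libraries it did not pass (1.47 to 1.90, adjusted p = 0.0668 to 0.146). MYC also passed when protein-coding genes alone were tested, with the same change and a limma adjusted p of 0.0490.

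The long non-coding RNA gene PVT1, which lies next to MYC on chromosome 8, was looked at after the MYC values had been seen. It had 3.11, 3.81 and 2.29 FPKM with PBS and 11.01, 11.2 and 9.31 with metformin, 3.42-fold higher (log2 change 1.51, SE 0.15, limma adjusted p = 0.000214). Its groups did not overlap, and PBS replicate 3, in which MYC was high, was the lowest PBS library for PVT1.

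MYC acts within a network of paired factors that compete for MAX, and 14 of its 16 listed genes were tested. Of these, 4 rose (28.6%) and 2 fell (14.3%), against 31.0% and 25.2% of all tested genes. MXD1, a MAX partner that represses MYC target sites, had 0.668, 0.882 and 1.05 FPKM with PBS and 5.199, 5.33 and 4.79 with metformin. The groups lay far apart, 5.88-fold higher with metformin (log2 change 1.71, SE 0.10, limma adjusted p = 3.00e-05). On the same strand, exons of MXD1 and SNRNP27 overlap, and SNRNP27 had 12.2 FPKM with PBS and 13.3 with metformin, so their fragments cannot be fully told apart. MNT, another repressive MAX partner, rose 1.33-fold, MLXIP, which encodes the glucose sensor MondoA, 1.38-fold, and PIM1, a kinase, 1.29-fold. MNT did not pass without PBS replicate 2 or 3 or metformin replicate 3 (adjusted p = 0.0533, 0.0552 and 0.0639), and PIM1 did not pass without any 1 of the metformin libraries (adjusted p = 0.0501 to 0.0684) or with median-of-ratios or quantile scaling (0.0601 and 0.0607). MLX, the MAX-like partner of MondoA, fell 1.56-fold from 18.6 ± 1.5 to 11.9 ± 1.48 FPKM, and CIP2A, a phosphatase inhibitor known for stabilising MYC protein, fell 1.74-fold from 14.2 ± 0.573 to 8.15 ± 0.727.

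MAX itself had 13.8, 15.1 and 12.9 FPKM with PBS and 8.43, 14.98 and 8.865 with metformin. Metformin replicate 2 lay within the PBS range and the other metformin libraries below it, and the difference did not pass (log2 change -0.39, limma adjusted p = 0.143). Without metformin replicate 2 the limma adjusted p was 0.00230. MXI1 averaged 4.51 ± 1.42 FPKM with PBS and 6.72 ± 0.683 with metformin (limma adjusted p = 0.0634), and passed without PBS replicate 1 (0.0455). MGA went from 2.00 ± 0.370 to 2.68 ± 0.0224 (limma adjusted p = 0.0512), and passed without PBS replicate 3 (0.0185) and under 3 further settings (0.0374 to 0.0453). MXD3, MXD4, ZBTB17, FBXW7 and USP28 also did not pass, with log2 changes between -0.12 and 0.15. The other MYC family genes, MYCN and MYCL, stayed below the filter.

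**Figure D2:**
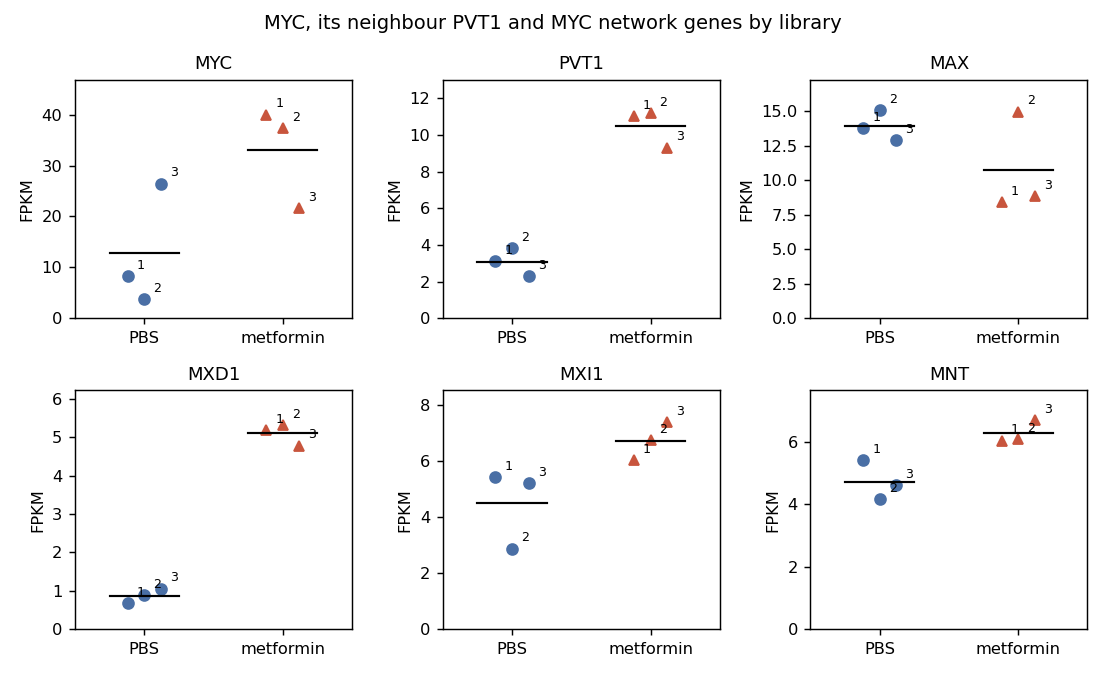
FPKM of MYC, its neighbour PVT1 and 4 MYC network genes in each library (circles, PBS; triangles, metformin; numbers, replicate; lines, group means). The MYC groups overlap through PBS replicate 3 at 26.5 FPKM, the PVT1 and MXD1 groups are far apart, and metformin replicate 2 of MAX lies within the PBS range.

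All 3 box C/D snoRNP proteins among the 38 genes fell, against 25.2% of all tested genes, with a median log2 change of -0.69. They belong to the particle that places methyl groups on ribosomal RNA. SNU13, a further protein of that particle, is in the list of other snoRNP genes and did not pass (log2 change 0.55, limma adjusted p = 0.0933). It had 16.0, 15.8 and 15.2 FPKM with PBS and 15.1, 31.6 and 26.6 with metformin, so the groups overlapped. NOP56 (ENSG00000101361.16, chromosome 20, 2652145 to 2658393), a scaffold of that particle, had 33.6, 33.1 and 34.6 FPKM with PBS and 15.1, 16.5 and 15.9 with metformin. This was the largest fall of the 38 genes, 2.13-fold (log2 change -1.05, SE 0.06, limma adjusted p = 1.76e-05), and the groups were far apart. FBL, fibrillarin, the methyltransferase of the particle, had 46.6, 51.4 and 49.8 FPKM with PBS and 30.4, 31.3 and 28.4 with metformin. Its groups did not overlap, and it fell 1.64-fold (log2 change -0.69, SE 0.06, limma adjusted p = 0.000137). NOP58, the second scaffold, fell 1.38-fold from 47.1 ± 5.26 to 34.2 ± 2.86 FPKM (log2 change -0.45, SE 0.10, limma adjusted p = 0.00768). NOP56 and NOP58 each share exon bases with a snoRNA gene on the same strand (SNORA51, 4.47 and 1.91 FPKM with PBS and metformin, and RF00575, 0.968 and 1.10).

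The box H/ACA proteins, which convert uridines of ribosomal RNA to pseudouridine, were mixed. Of the 4, 2 were lower and 0 higher, against 25.2% and 31.0% of all tested genes. GAR1, a small core subunit, had 8.15, 8.24 and 9.535 FPKM with PBS and 5.39, 6.05 and 6.38 with metformin, and the groups did not overlap (1.46-fold lower, log2 change -0.47, SE 0.09, limma adjusted p = 0.00394). DKC1, dyskerin, the pseudouridine synthase, had 29.3, 28.7 and 28.0 FPKM against 25.4, 21.8 and 25.8, a 1.18-fold fall close to the threshold (log2 change -0.23, limma adjusted p = 0.0334). That call was lost under 10 of the 18 other settings, including without any 1 of the PBS libraries or metformin replicate 2 (adjusted p = 0.0597 to 0.0899). NHP2 averaged 62.6 ± 3.29 and 55.9 ± 3.705 FPKM and did not pass (log2 change -0.16, 95% confidence interval -0.32 to -0.0044), but passed as lower without metformin replicate 2 and with median-of-ratios scaling (limma adjusted p = 0.0322 and 0.0224). NOP10 had 45.4, 57.0 and 59.0 FPKM with PBS and 59.97, 56.5 and 60.4 with metformin, and its groups overlapped (log2 change 0.14, interval -0.10 to 0.38).

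Because FPKM is scaled by length, levels within a complex can be set against each other. In PBS the NOP56 level was 0.723 ± 0.0857 of the NOP58 level (SD, n = 3), and with metformin 0.466 ± 0.0611. The libraries of the groups did not overlap in this ratio, nor in NOP56 to FBL (0.687 ± 0.0394 and 0.527 ± 0.0314), GAR1 to DKC1 (0.302 ± 0.0337 and 0.246 ± 0.0325) and NOP10 to DKC1 (1.88 ± 0.293 and 2.43 ± 0.136). The same held for WDR12 to PES1 in the PeBoW complex, a trio of large-subunit factors (0.238 ± 0.0138 and 0.2998 ± 0.0594). For these 5 of the 9 ratios compared, the exact permutation test gave p = 0.1 (two-sided, 0.18 after Benjamini-Hochberg adjustment over the 9), which is the smallest p that 3 libraries against 3 allow, so none could pass. In FBL to NOP58, NHP2 to DKC1, PES1 to BOP1 and WDR12 to BOP1 the groups overlapped.

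**Figure D3:**
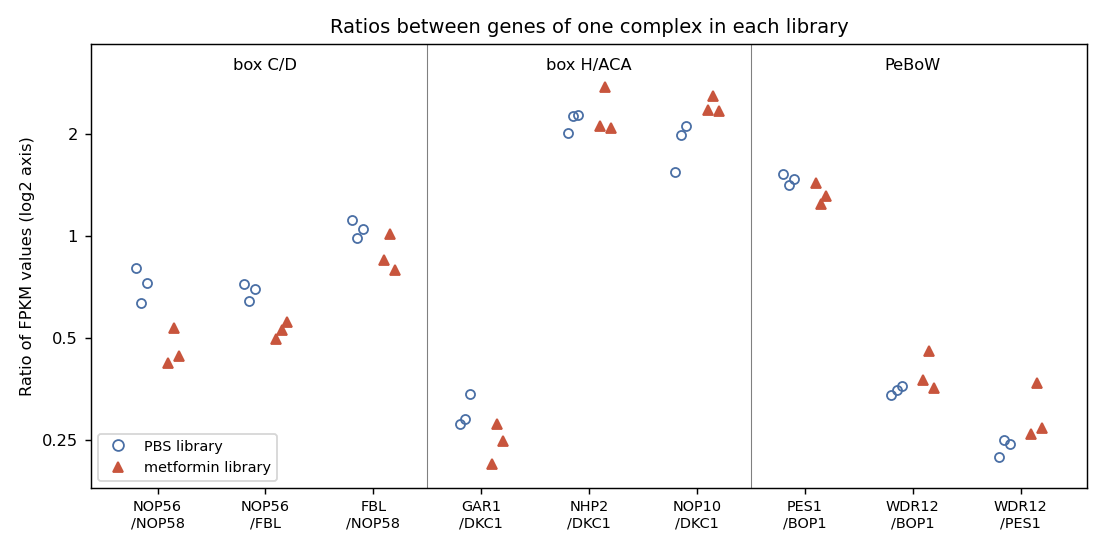
Ratio of FPKM values between genes of one complex in each library, on a log2 axis (open circles, PBS; triangles, metformin). NOP56 sits lower against both NOP58 and FBL in every metformin library, and NOP10 sits higher against DKC1.

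Genes of RNA polymerase I transcription went both ways, with 2 of 5 lower and 1 higher, against 25.2% and 31.0% of all tested genes. UBTF (ENSG00000108312.14, chromosome 17, 44205033 to 44221626), the upstream binding factor that keeps ribosomal DNA open for transcription, had 13.3, 13.5 and 14.4 FPKM with PBS and 19.4, 17.8 and 18.3 with metformin. It was 1.35-fold higher with groups that did not overlap (log2 change 0.40, SE 0.06, limma adjusted p = 0.00142), and it was the only one of the 38 genes that rose under the settings used for the values given here. TCOF1, treacle, a nucleolar partner of UBTF, had 20.3, 18.9 and 19.96 FPKM with PBS and 14.3, 14.7 and 15.4 with metformin. It thus moved opposite to UBTF (1.33-fold lower, log2 change -0.39, SE 0.06, limma adjusted p = 0.00133). POLR1A, the largest subunit of the enzyme, fell 1.27-fold from 8.497 ± 0.801 to 6.71 ± 0.232 FPKM (limma adjusted p = 0.0183). That call was lost under 4 of the 18 other settings, at a limma adjusted p of up to 0.0923. These included leaving out PBS replicate 1 or 3 or metformin replicate 2 (adjusted p = 0.0563 to 0.0601). POLR1B, the second-largest subunit, averaged 8.84 ± 1.05 and 8.18 ± 0.0768 FPKM (log2 change -0.09, interval -0.31 to 0.12). POLR1C, a subunit shared with RNA polymerase III, averaged 7.65 ± 0.723 and 9.03 ± 0.673 and did not pass (limma adjusted p = 0.0748), but passed as higher without PBS replicate 2 (0.0345) and after rescaling to a fixed sum (0.0476). POLR1C shares exon bases with XPO5, YIPF3 and an antisense gene.

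**Figure D4:**
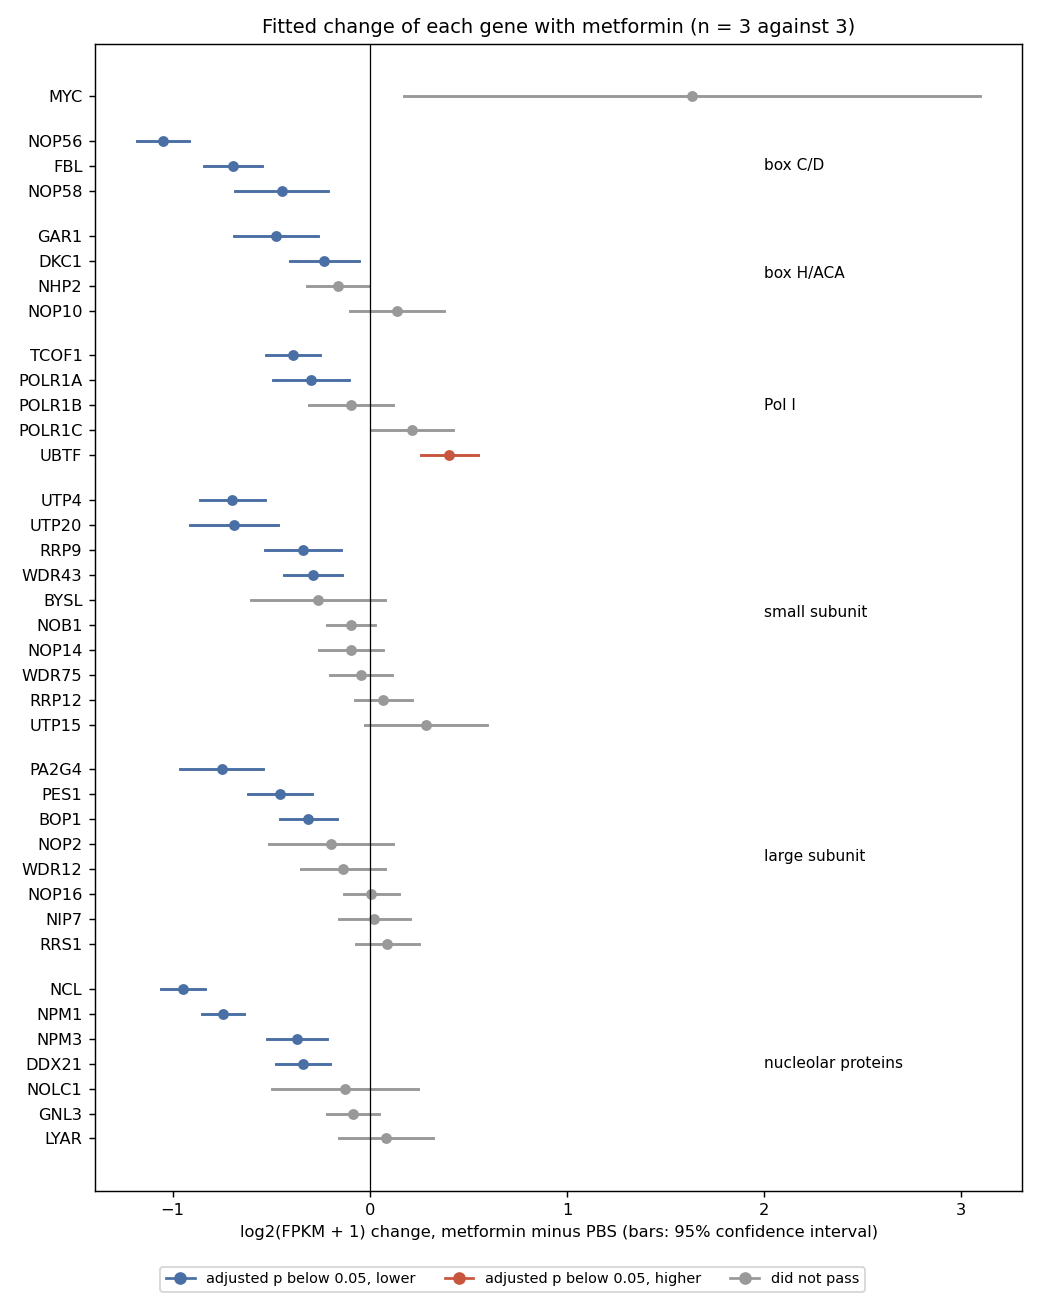
Fitted change of each of the 38 genes on the log2(FPKM + 1) scale, metformin minus PBS, with its 95% confidence interval, grouped by role (blue, lower; red, higher; grey, did not pass at an adjusted p of 0.05). The interval of MYC spans 0.17 to 3.096, wider than that of any other gene here, and UBTF is the 1 gene in red.

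Small-subunit processing factors fell in 4 of 10 (40.0%) and rose in 0, against 25.2% and 31.0% of all tested genes. Their median log2 change was -0.18. UTP4, a component of the processome that first binds the precursor RNA, had 19.5, 19.1 and 22.0 FPKM with PBS and 11.9, 12.1 and 12.2 with metformin. Its groups were far apart, and it fell 1.68-fold (log2 change -0.70, SE 0.07, limma adjusted p = 0.000214). UTP4 shares exon bases on the opposite strand with CHTF8, which had 8.36 and 6.66 FPKM. UTP20, a large scaffold protein of the processome, had 8.67, 7.26 and 8.66 FPKM with PBS and 4.38, 5.17 and 4.55 with metformin, 1.74-fold lower (log2 change -0.69, SE 0.09, limma adjusted p = 0.000945). Both genes thus fell by a like fold from different levels. RRP9, a U3 snoRNP protein, fell 1.28-fold from 25.6 ± 1.74 to 20.03 ± 1.69 FPKM, and WDR43, another early processome protein, fell 1.23-fold from 34.0 ± 1.97 to 27.6 ± 1.04. The RRP9 call was lost when both libraries numbered 3 were left out (limma adjusted p = 0.0534).

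The other 6 small-subunit factors did not pass. NOP14, WDR75 and NOB1, the nuclease that makes the last cut of the small-subunit RNA, had log2 changes of -0.09, -0.04 and -0.10, with intervals that reached no further than -0.26. Every metformin value of NOB1 lay below its PBS values (40.3, 42.3 and 40.7 FPKM against 39.4, 36.6 and 39.3), although the gap was small, and with median-of-ratios scaling it passed as lower (limma adjusted p = 0.0277). NOB1 shares exon bases with the antisense gene AC092115.3, which had a similar level (41.2 and 40.7 FPKM). RRP12, which takes part in subunit export, had a log2 change of 0.07 (interval -0.08 to 0.21). BYSL, bystin, ranged from 11.6 to 16.9 FPKM with PBS and from 10.4 to 13.1 with metformin (log2 change -0.26, interval -0.60 to 0.07), and passed without PBS replicate 1 (limma adjusted p = 0.0395). UTP15, the gene with the lowest PBS mean of the 38, had 5.28, 3.71 and 5.46 FPKM with PBS and 6.30, 6.03 and 5.73 with metformin. All its metformin values were above its PBS values, yet it did not pass (log2 change 0.28, interval -0.03 to 0.60).

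Large-subunit processing factors fell in 3 of 8 (37.5%) and rose in 0, against 25.2% and 31.0% of all tested genes. Their median log2 change was -0.17. PA2G4, a growth-regulated protein that binds maturing large subunits, had 103, 106 and 107 FPKM with PBS and 63.7, 54.4 and 69.5 with metformin. It fell 1.69-fold with groups far apart (log2 change -0.75, SE 0.09, limma adjusted p = 0.000472). It overlaps the antisense gene AC034102.4, which had 103 and 54.8 FPKM, so the reads of the pair cannot be told apart if counting ignored strand. PES1 and BOP1, partners in the PeBoW complex, both fell. PES1 had 29.6, 29.8 and 28.9 FPKM with PBS and 22.5, 19.3 and 21.9 with metformin (1.39-fold lower, log2 change -0.46, SE 0.07, limma adjusted p = 0.00140). BOP1 had 19.5, 21.1 and 19.5 against 15.6, 15.5 and 16.7 (1.26-fold lower, log2 change -0.31, SE 0.06, limma adjusted p = 0.00436). In neither gene did the groups overlap.

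The third PeBoW partner, WDR12, averaged 7.001 ± 0.406 and 6.29 ± 0.699 FPKM and did not pass (log2 change -0.14, interval -0.35 to 0.08). NOP2, a methyltransferase of large-subunit RNA, had an interval of -0.51 to 0.12, with metformin replicate 2 the lowest library at 11.4 FPKM. The intervals of NOP16 (-0.13 to 0.15), NIP7 (-0.16 to 0.20) and RRS1 (-0.07 to 0.25), which all serve the large subunit, were narrow and included 0. The fitted changes of NOP16 and NIP7 changed sign under some other settings, and that of RRS1 did not under any of the 18 tried.

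Among the 7 nucleolar scaffold, chaperone and GTPase or helicase proteins, 4 fell and 0 rose, against 25.2% and 31.0% of all tested genes. Their median log2 change was -0.34. NCL (ENSG00000115053.15, chromosome 2, 231453531 to 231483641), nucleolin, had 158, 161 and 167 FPKM with PBS and 87.1, 81.2 and 81.8 with metformin, about as large a fall as that of NOP56 (1.94-fold, log2 change -0.95, SE 0.05, limma adjusted p = 1.31e-05). NPM1, nucleophosmin, a histone and ribosome chaperone that shapes the outer nucleolus, had the highest level of the 38 genes. It had 228, 244 and 240 FPKM with PBS and 139, 146 and 138 with metformin (1.68-fold lower, log2 change -0.75, SE 0.04, limma adjusted p = 2.70e-05). Neither gene's groups came near each other. GENCODE names 45 NPM1 pseudogenes among the listed genes, whose levels summed to 15.5 FPKM with PBS and 10.3 with metformin, so fragments may be shared between them and NPM1.

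NPM3, a relative of nucleophosmin, fell 1.30-fold from 57.0 ± 3.93 to 43.9 ± 1.41 FPKM (limma adjusted p = 0.00250), and DDX21, a helicase that links polymerase I transcription to processing, fell 1.27-fold from 92.6 ± 5.96 to 73.0 ± 1.65 (limma adjusted p = 0.00247). In both, every metformin library lay below every PBS library. NOLC1, a phosphoprotein chaperone of snoRNPs, had 92.0, 96.8 and 62.8 FPKM with PBS and 77.8, 72.9 and 75.7 with metformin. PBS replicate 3, the library with high MYC, was the lowest of all 6 for NOLC1, and without it NOLC1 passed as lower (log2 change -0.32, limma adjusted p = 0.00532), whereas with it the change was -0.13 (adjusted p = 0.520). GNL3, nucleostemin, a GTPase, had a log2 change of -0.08 (interval -0.22 to 0.05) and passed as lower with median-of-ratios scaling (limma adjusted p = 0.0436). LYAR, which binds precursor ribosomal RNA, had 0.08 (interval -0.16 to 0.32).

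Genes with higher PBS levels tended to have lower log2 changes. Across the 38 genes Spearman's rho between the PBS mean and the log2 change was -0.44 (-0.43 without MYC), and across all 13437 tested genes it was -0.33. These are descriptions across genes, which share the same 6 libraries, and the PBS mean also enters the change. Exons of 13 of the 38 overlap those of a further gene that passed the filter, and 4 of the 13 were called. Among the 25 without such an overlap, 14 fell and 1 rose.

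Several of these genes carry snoRNA genes, whose products are the guide RNAs of snoRNPs. GENCODE places 24 snoRNA genes on the same strand within 7 of the 38, which is 18.4% of the genes, against 1.85% of 10801 tested protein-coding genes. The hosts are NOP56 with 5, NOP58 with 4, NCL and WDR43 with 3 each, DKC1 with 2, GNL3 with 6 and POLR1C with 1. Of these 7 hosts, 5 fell and 0 rose, with a median log2 change of -0.29. Of the 31 other genes 13 fell, with a median of -0.16. Over all tested genes 25.2% fell and 31.0% rose. The 5 include DKC1, whose call was lost under 10 of the 18 other settings. The difference between hosts and other genes was not tested.

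Other genes of the pathway were followed in lists made by role. Of 134 further ribosome biogenesis genes in 5 lists, all tested, 57 fell (42.5%) and 18 rose (13.4%), against 25.2% and 31.0% of all tested genes. Their median log2 change was -0.14. Whether these shares differ from those of the 38 was not tested. Other snoRNP and assembly genes gave 4 lower and 1 higher of 10. RUVBL2, an ATPase of the R2TP assembly complex, fell 2.00-fold from 48.6 ± 2.40 to 24.3 ± 1.03 FPKM, and RPAP3 of the same complex fell 1.75-fold. ZNHIT6, an assembly factor of box C/D particles, rose 1.59-fold to 12.2 ± 0.286.

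Other polymerase I genes gave 6 lower and 4 higher of 16, so both directions occurred, as among the core genes. Calls in both directions were also common over all tested genes (25.2% lower and 31.0% higher), so this is not particular to polymerase I genes. RRN3, the initiation factor TIF-IA, rose 1.49-fold from 14.5 ± 0.536 to 21.6 ± 1.015 FPKM, and TAF1A of the promoter selectivity factor SL1 rose 1.52-fold to 6.72 ± 0.730. POLR2L and POLR2E, small subunits shared by the nuclear RNA polymerases, fell 2.22-fold and 1.55-fold, and each shares exon bases with a gene on the other strand. CD151, which overlaps POLR2L, had 20.3 FPKM with PBS and 8.97 with metformin, and ARHGAP45, which overlaps POLR2E, 5.62 and 2.53. The reads of each pair cannot be told apart if counting ignored strand.

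Other small-subunit genes gave 24 lower and 3 higher of 46 (52.2% and 6.52%), against 25.2% and 31.0% of all tested genes. NOC4L fell 2.06-fold from 14.9 ± 1.53 to 7.27 ± 1.385 FPKM, and DDX47, a helicase, 1.62-fold, a call lost without PBS replicate 1 or 2 (limma adjusted p = 0.0732 and 0.0770). PDCD11, the human counterpart of the yeast scaffold Rrp5, rose 1.53-fold and PNO1, a partner of NOB1, 1.37-fold. Other large-subunit genes gave 17 lower and 9 higher of 45. LAS1L, part of an endonuclease of the internal spacer, fell 2.08-fold from 15.9 ± 0.416 to 7.66 ± 0.890, and DDX24, a helicase, 2.07-fold. NOP53, an adaptor of the exosome, rose 1.79-fold to 37.7 ± 1.30, and RSL24D1, a late assembly factor, 1.73-fold to 51.4 ± 2.18.

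The RNA exosome and end-processing list gave 6 lower and 1 higher of 17 (35.3% and 5.88%), against 25.2% and 31.0% of all tested genes. The gene that rose was EXOSC6, a subunit of the exosome ring, at 6.71, 6.44 and 7.01 FPKM with PBS and 28.2, 23.8 and 23.5 with metformin, 3.75-fold higher. EXOSC10, the nuclear exosome nuclease, fell 1.58-fold and EXOSC2 1.70-fold. The EXOSC2 call was lost without PBS replicate 2 or 3 or metformin replicate 1 or 2 (limma adjusted p = 0.0527 to 0.0789). Commonly cited MYC targets outside ribosome biogenesis gave 17 lower and 4 higher of 24 (70.8% and 16.7%), with a median log2 change of -0.56. LDHA, which makes lactate from pyruvate, averaged 205 ± 38.8 FPKM with PBS and 48.6 ± 4.17 with metformin, 4.21-fold lower, and HNRNPA1, a splicing regulator, fell 3.72-fold from 165 ± 3.03 to 44.3 ± 1.54. CCND2, cyclin D2, rose 1.93-fold and SLC16A1, a lactate transporter, 1.57-fold. LDHA and HNRNPA1 have processed pseudogenes, between which fragments may be split. Among the genes named outside the 38, DDX24, DDX47, EXOSC10, MLX, MNT, PNO1 and SLC16A1 also overlap exons of a further gene. SNU13 was not checked for this. MXD3 overlaps PRELID1, at 37.2 FPKM with PBS and 30.8 with metformin, on the other strand, and RAB24, at 2.83 in both groups, on its own.

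**Figure D5:**
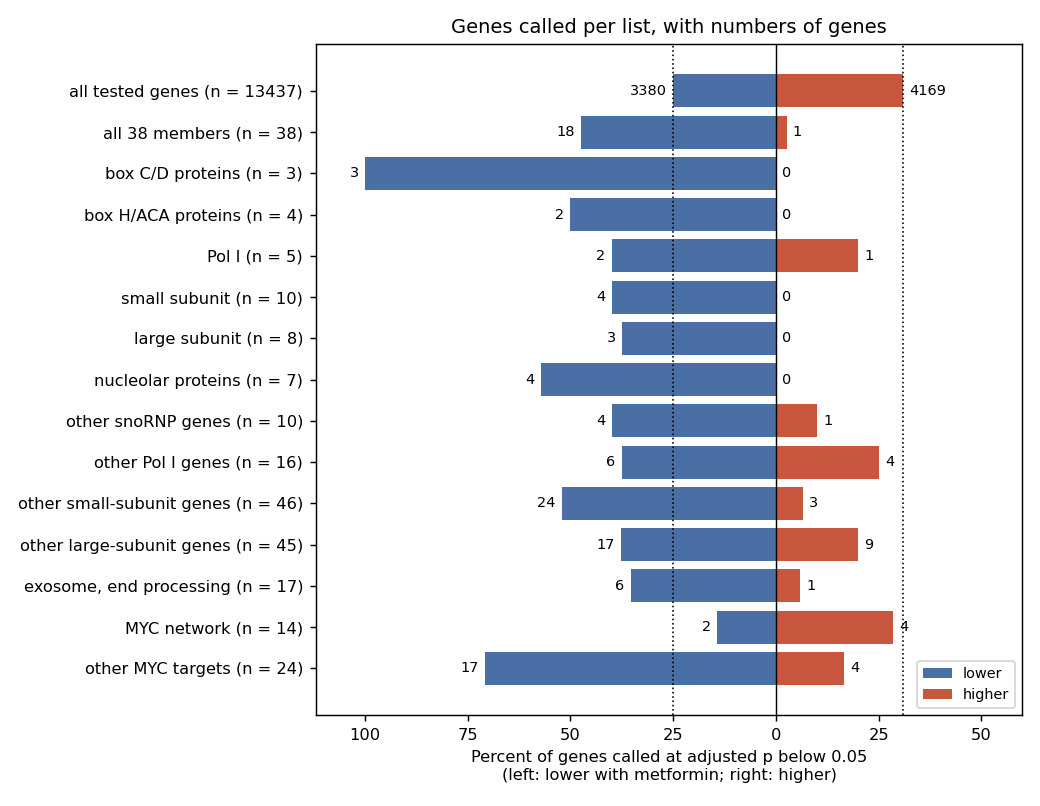
Percent of genes in each list that passed as lower (blue, left) or higher (red, right) with metformin, with the number of genes beside each bar and the shares over all 13437 tested genes as dotted lines (25.2% lower, 31.0% higher). The 38 genes have 18 to the left and 1 to the right.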

How the data were processed

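The deposited files, 1 per library, hold FPKM as computed by the authors, per the file headers. The genome build was GRCh38, per the submitters' processing notes. Alignment and quantification software, strandedness and annotation release: not given in the sources used here. Identifiers without version were matched to GENCODE release 29, which named 57980 of 58243 genes. DIEXF was matched as UTP25 through RefSeq synonyms. The 37 genes of mitochondrial DNA were listed at 0 throughout, so a listed 0 is not read as absence. FPKM depends on all other genes of a library.

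Values were fitted as log2(FPKM + 1) with limma 3.58.1 in R 4.3.3 (intensity trend, group as the only term) over the 13437 genes that averaged 1 FPKM or more, with Benjamini-Hochberg adjustment and a threshold of 0.05. The fit was tested on simulated data. Intervals are 95% from the moderated fit and SDs are over 3 libraries. Depth was estimated from the spacing of low values, with lengths of single-transcript genes. Exon overlaps used BEDTools 2.31.1.

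The 38 genes, the role groups and the other lists were chosen with earlier results of these data known. All 38 are accounted for. Per other list, the text names up to 2 passing genes per direction with the largest changes whose higher group averaged 5 FPKM or more. It also names every tested MYC network gene, and PVT1 and SNU13, which were chosen after their values were seen. The alternatives were other pseudocounts, level filters, scalings and variance models, a replicate block, protein-coding genes only, and libraries left out.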

Additional observations from a re-analysis of the deposited data

How the results depend on the processing

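Of the 19 calls among the 38 genes, 16 held under all 18 other settings, and those of DKC1, POLR1A and RRP9 were lost under at least 1. Of the 19 genes that did not pass, 7 passed under at least 1 setting. The number that fell was 16 to 21. The number that rose was 2 rather than 1 after rescaling to a fixed sum, with protein-coding genes only and with both libraries numbered 3 left out, and 1 to 2 when each library was left out in turn. Over all genes, 7549 passed, and 4738 when a mean of at least 5 FPKM was required, where 7388 genes were tested.

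The sign changed only in genes that did not pass. With median-of-ratios scaling the log2 change was -0.0023 for RRP12, -0.069 for NOP16, -0.053 for NIP7 and -0.0099 for FBXW7. With quantile scaling it was 0.0052 for NOB1, -0.015 for MXD4 and -0.13 for FBXW7. After rescaling to a fixed sum it was 0.010 for USP28, and with both libraries numbered 3 left out -0.032 for NOP16 and -0.045 for LYAR. With each library left out in turn it ranged from -0.030 to 0.047 for NOP16, -0.020 to 0.094 for NIP7, -0.033 to 0.080 for FBXW7 and -0.10 to 0.044 for USP28. The cause was not tested.

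The replicate numbers are shared between the groups, but same-numbered libraries did not deviate together (correlations of -0.00035, 0.03 and -0.01). These values cannot show whether same-numbered libraries were handled together, and the labels do not say. With the replicate block 17 of the 38 genes fell and 1 rose, and over all genes 3199 fell and 3940 rose. Not every library correlated best with its own number. With 3 libraries a group, small differences can be missed, above all in genes that vary between libraries.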
